A study of Mus musculus with 24 samples.

Results

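The 8 genes described here are Fyco1, Tdrd7, Chmp4b, Agk, Gcnt2, Nhs, Sil1 and Wfs1, all mouse counterparts of genes whose mutation causes inherited cataract in humans and none of which encodes a crystallin, connexin, water channel or filament of the lens. They were chosen by name, and all 8 were found among the 23947 gene symbols of the expression table. The series examined the transcription factor Pax6 in CD-1 mice, in forebrain of embryos at E12.5 and in lens of newborns at P1, with 24 samples in all, most of them ChIP-seq. The members were measured in 3 RNA-seq libraries from total RNA, 1 each of E12.5 forebrain, P1 lens epithelium (the dividing cell sheet at the front of the lens) and P1 lens fibers (the elongated cells that form the bulk of the lens and lose their organelles). The labels give CD-1 as the strain of all 3 groups, with no mutation and no treatment, and do not say whether tissue of several animals was pooled. Values are RPKM, reads scaled to transcript length and to sequencing depth, which is meant to let levels be compared between genes. This does not hold for every gene. Gapdh was listed under 1 RPKM in each library, and in forebrain Hba-a2 at 0.0039 beside Hba-a1 at 956.3. How the libraries were scaled to each other is not stated.

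With 1 library per group there is no spread between replicates and no test. Every difference below compares those libraries, and it cannot be said which neighbouring levels of a gene differ beyond the spread between animals. Forebrain and lens also differ in age, and effects of tissue and of age cannot be told apart. The 3 comparisons share libraries and are not independent of each other. In bulk RNA, fewer cells of a type and less RNA per cell cannot be told apart.

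Cataract is a loss of transparency of the lens. Fibers make most of their protein early, then clear nuclei, mitochondria and endoplasmic reticulum and must keep the remaining proteins soluble for life, so defects of membrane traffic, RNA handling, protein folding or mitochondria can cloud the lens. The 8 genes work at different points of this cell biology. Tdrd7 encodes a Tudor domain protein of cytoplasmic RNA granules. Nhs, the gene of Nance-Horan syndrome, encodes a regulator of actin and cell shape. Chmp4b encodes the main filament-forming subunit of ESCRT-III, the complex that cuts membrane necks. Fyco1 encodes an adaptor that ties autophagosomes to microtubule transport. Sil1 encodes a nucleotide exchange factor for the endoplasmic reticulum chaperone BiP, the product of Hspa5. Wfs1 encodes wolframin, a membrane protein of the endoplasmic reticulum. Agk encodes a mitochondrial lipid kinase that is also part of the TIM22 import complex. Gcnt2 encodes the enzyme that adds I branches to poly-N-acetyllactosamine sugar chains.

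Tdrd7 and Nhs were the 2 members with the highest fiber level relative to epithelium, and their RefSeq promoter windows are shown for that reason. Each window runs from 250 bases before to 50 after a transcript start on GRCm38.p6, is written 5′ to 3′ on the gene's strand, and has matches to the 5 motifs searched in capitals. Tdrd7 has 3 annotated starts on the plus strand, at chr4:45965085-45965384, chr4:45972047-45972346 and chr4:45972581-45972880, and Nhs has 1 window on the minus strand at chrX:162159392-162159691.
Tdrd7 window 1: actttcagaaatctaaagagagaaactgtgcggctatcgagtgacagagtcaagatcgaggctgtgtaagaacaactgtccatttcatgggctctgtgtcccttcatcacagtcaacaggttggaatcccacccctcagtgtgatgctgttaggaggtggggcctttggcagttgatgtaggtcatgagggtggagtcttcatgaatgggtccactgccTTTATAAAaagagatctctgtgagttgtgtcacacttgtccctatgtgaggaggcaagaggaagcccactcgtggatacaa
Tdrd7 window 2: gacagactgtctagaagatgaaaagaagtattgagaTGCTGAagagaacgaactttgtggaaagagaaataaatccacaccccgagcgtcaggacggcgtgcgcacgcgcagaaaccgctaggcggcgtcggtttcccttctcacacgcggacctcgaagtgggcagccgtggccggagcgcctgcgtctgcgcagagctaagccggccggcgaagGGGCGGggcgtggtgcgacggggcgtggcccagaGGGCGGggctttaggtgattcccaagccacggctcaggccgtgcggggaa
Tdrd7 window 3: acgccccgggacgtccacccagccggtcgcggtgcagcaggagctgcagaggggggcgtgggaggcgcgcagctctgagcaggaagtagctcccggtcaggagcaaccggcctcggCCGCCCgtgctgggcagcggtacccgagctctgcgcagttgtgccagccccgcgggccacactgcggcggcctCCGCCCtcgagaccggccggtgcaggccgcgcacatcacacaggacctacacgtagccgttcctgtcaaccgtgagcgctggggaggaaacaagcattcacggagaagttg
Nhs window 1: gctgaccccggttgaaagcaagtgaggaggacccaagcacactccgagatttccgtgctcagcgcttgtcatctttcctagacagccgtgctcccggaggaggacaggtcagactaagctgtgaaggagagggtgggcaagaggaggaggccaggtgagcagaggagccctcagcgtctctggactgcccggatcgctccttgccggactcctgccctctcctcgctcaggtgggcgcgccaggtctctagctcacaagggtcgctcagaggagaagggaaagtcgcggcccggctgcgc

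Both strands were searched. The first Tdrd7 window held TATAAA, the TATA box, on both strands in overlapping positions, and a G and C content of 48.3%. Windows 2 and 3 held 2 GC boxes each (letters GGGCGG) and were richer in G and C, at 63.0% and 70.3%, and window 2 also held 1 Maf motif, TGCTGA. The Nhs window held no match to the 5 motifs at 63.3% G and C. No Tdrd7 or Nhs window held the heat shock element core GAANNTTC or the CCAAT box. Of all 32851 RefSeq windows, 13.6% held the TATA box, 35.7% the GC box, 19.5% the Maf motif, 7.86% the heat shock element core and 37.4% the CCAAT box. These matches describe letters only, and the deposited gene value does not tell which of the 3 Tdrd7 starts was used.

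Tdrd7 showed the widest range of the 8 genes. Forebrain had 2.49 RPKM, epithelium 21.5 and fibers 1121. The fiber library stood far above the others, at 52.2 times epithelium and 450 times forebrain, and epithelium was at 8.61 times forebrain. In fibers Tdrd7 was the 63rd highest of all 23947 symbols (the top 0.263%), while it ranked 2134th in epithelium and 9368th in forebrain. On the log2 scale with 1 RPKM added to each value, which is used for all log2 ratios here, its ratio was 5.64 for fiber over epithelium, 37th from the top of the 12090 genes that reached 1 RPKM in either lens library. The other ratios were 2.69 for epithelium over forebrain and 8.33 for fiber over forebrain. Over the 4 rescalings tried and an added value of 0.1 RPKM, the fiber over epithelium ratio lay between 5.15 and 5.85.

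Nhs had the same order at lower levels, with 1.67 RPKM in forebrain, 5.57 in epithelium and 29.4 in fibers. Fibers were at 5.29 times epithelium (log2 ratio 2.21) and 17.6 times forebrain (3.51), and epithelium at 3.33 times forebrain (1.30). Nhs ranked 371st of the 12090 genes by its fiber over epithelium ratio. By level it ranked 7028th of all symbols in epithelium and 1627th in fibers.

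Chmp4b was the most abundant member in forebrain and epithelium and second to Tdrd7 in fibers. It was listed at 34.9 RPKM in forebrain, 43.7 in epithelium and 86.7 in fibers, among the top 5.09%, 3.85% and 2.55% of symbols. The fiber value was 1.98 times that of epithelium, with a log2 ratio of 0.97, just under the 2-fold threshold. That ratio was 1.17 when centred on the median gene and 0.47 when the libraries were scaled to the same sum without crystallins, so the side of the threshold depended on scaling. Over forebrain, the log2 ratio of fibers was 1.29, and 0.87 with the same sum without crystallins.

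Sil1 was higher in both lens libraries than in forebrain and close between the lens libraries themselves. It was listed at 4.74 RPKM in forebrain, 18.7 in epithelium and 21.4 in fibers. Epithelium was at 3.95 times forebrain (log2 ratio 1.78) and fibers at 4.51 times (1.96). Fibers were at 1.14 times epithelium (0.18), a ratio that fell on the other side of 0, at -0.30, with the same sum without crystallins.

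Fyco1 and Wfs1 had this pattern at low levels. Fyco1 was listed at 1.25 RPKM in forebrain, 3.95 in epithelium and 5.10 in fibers, and Wfs1 at 1.02, 3.26 and 2.73. Set against forebrain, the log2 ratio of Fyco1 was 1.14 in epithelium and 1.44 in fibers, and that of Wfs1 was 1.07 and 0.89. Set against epithelium, fibers had a ratio of 0.30 for Fyco1 and -0.19 for Wfs1. Scaling changed the sign between the lens libraries for both, with Fyco1 at -0.11 under the same sum without crystallins and Wfs1 at 0.01 when centred on the median gene, so neither direction between fiber and epithelium is firm. The ratio of epithelium over forebrain was just under the 2-fold threshold for both when the libraries were scaled by 16 housekeeping genes, at 0.98 for Fyco1 and 0.93 for Wfs1.

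Agk and Gcnt2 were the members with their lowest level in fibers. Agk was listed at 2.87 RPKM in forebrain, 2.36 in epithelium and 0.814 in fibers. The fiber value was 2.90 times lower than epithelium and 3.53 times lower than forebrain, with log2 ratios of -0.89 and -1.09, and epithelium lay close to forebrain (-0.21). Gcnt2 was the least abundant member in every library, at 0.988 RPKM in forebrain, 1.69 in epithelium and 0.103 in fibers. Its fiber value was 16.4 times lower than epithelium by the RPKM themselves. The log2 ratio with 1 RPKM added was only -1.29, and -3.14 with 0.1 RPKM added, since the added value weighs heavily at such levels. Gcnt2 has 3 known transcripts with different first exons, IGnTA, IGnTB and IGnTC, and the table gives 1 value for all of them.

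**Figure D1:**
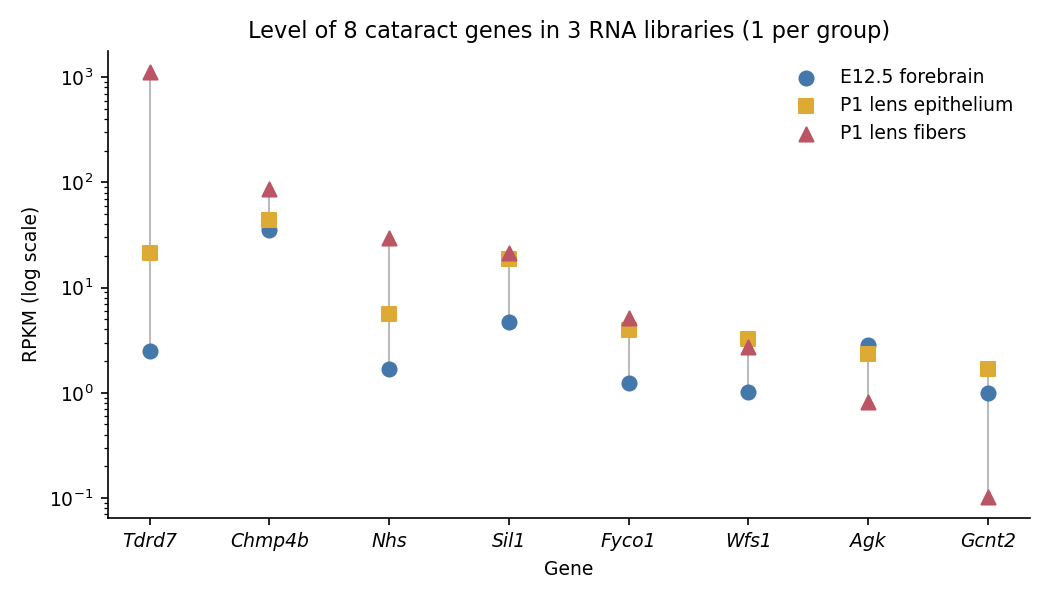
RPKM (log scale) of the 8 genes, 1 point per library, with E12.5 forebrain as circles, P1 lens epithelium as squares and P1 lens fibers as triangles, ordered by the fiber value. The Tdrd7 fiber point at 1121 RPKM stands apart, fibers are highest for 5 genes, and for Agk and Gcnt2 they are lowest.

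Most members were higher in lens than in forebrain, and they were divided between fiber and epithelium. Between epithelium and forebrain, 5 of 8 members were at least 2-fold higher in epithelium (Fyco1, Tdrd7, Nhs, Sil1 and Wfs1), where 13.7% of 12619 genes were, and 0 were at least 2-fold lower, where 11.9% of genes were. Between fiber and forebrain, 5 of the 7 members that reached 1 RPKM in one of the libraries were at least 2-fold higher in fibers (Fyco1, Tdrd7, Chmp4b, Nhs and Sil1), against 15.9% of 12205 genes, and 1 (Agk) was at least 2-fold lower, against 31.6%. Gcnt2 was under 1 RPKM in both of these libraries and did not enter that count. Between fiber and epithelium, 2 of 8 members (Tdrd7 and Nhs) were at least 2-fold higher in fibers, against 11.4% of 12090 genes, and 1 (Gcnt2) was at least 2-fold lower, against 28.3%. All these counts use the log2 ratio with 1 RPKM added, which draws low levels toward 0. By the RPKM themselves, Agk was 2.90 times lower in fibers than in epithelium and Wfs1 2.68 times higher in fibers than in forebrain. Neither was counted. The median log2 ratio was 0.24 for the members in fiber over epithelium, beside -0.42 over the 12090 genes. It was 1.11 in epithelium over forebrain, beside -0.03 over 12619 genes, and 1.44 in fiber over forebrain, beside -0.41 over 12205 genes. The genes were picked by name with earlier results of these data known, so these counts are a description.

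**Figure D2:**
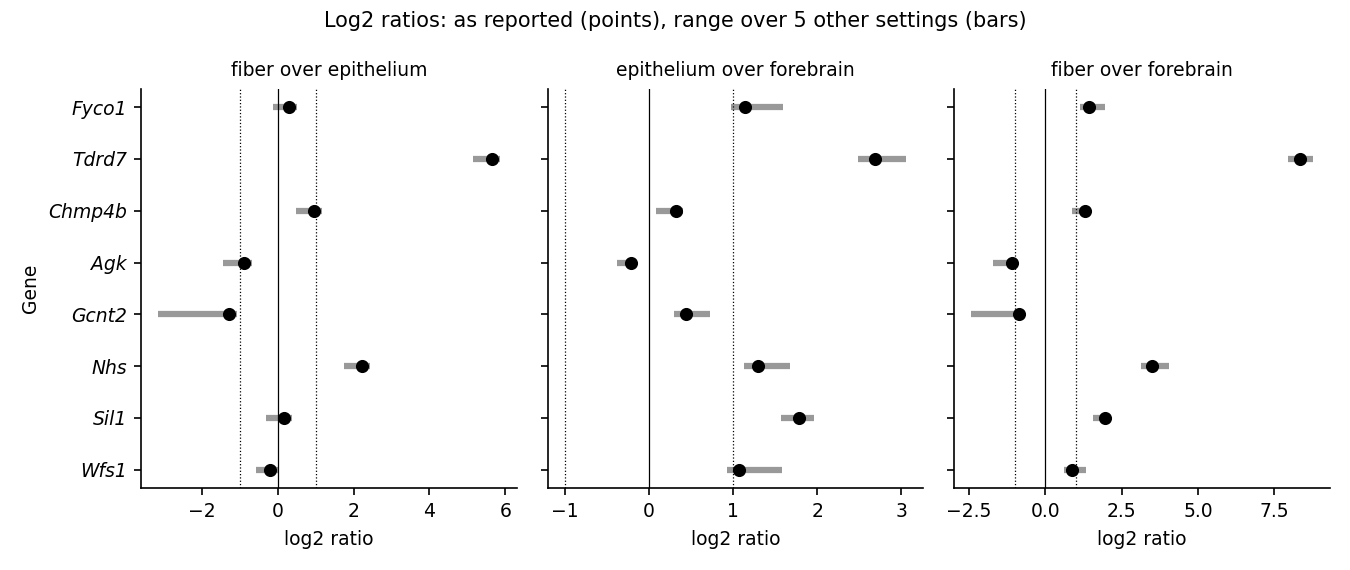
Log2 ratios of the 8 genes in the 3 comparisons, with points for the reported value, grey bars for the range over 5 other settings (added value and scaling) and dotted lines at 2-fold. Tdrd7 and Nhs stay past 2-fold in all 3 panels, while the fiber over epithelium bars of Fyco1, Sil1 and Wfs1 cross 0.

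The fiber library is dominated by crystallins, and this bears on every ratio to it. The 16 crystallins listed took 0.0180% of the summed RPKM in forebrain, 3.70% in epithelium and 69.2% in fibers, yet the sum of all other genes was higher in fibers (802835) than in epithelium (565764) or forebrain (597913). Among genes that reached 1 RPKM in each of the libraries compared, the median log2 ratio was -0.20 for fiber over epithelium and -0.05 for epithelium over forebrain, and -0.19 when fibers were set against forebrain. With the same sum without crystallins these medians were -0.63, 0.02 and -0.55, and with 16 housekeeping genes -0.20, -0.26 and -0.40. Of all genes past 2-fold between fiber and epithelium, 28.7% were higher in fibers as deposited, 14% with the same sum without crystallins and 40.3% when centred on the median. For fiber over forebrain the share was 33.5% as deposited and 21.7% with the same sum. For epithelium over forebrain it was 53.5% as deposited and 41.0% when scaled by 16 housekeeping genes. Of those 16, Gapdh was listed at 0.483, 0.199 and 0.573 RPKM in forebrain, epithelium and fibers and Ppia at 0.386, 1.53 and 3.40, although both are abundant in most cells. The cause was not tested.

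Most markers were highest in the tissue of their label, and other cells left traces. The 10 forebrain markers summed to 1000 RPKM in forebrain, 11 in epithelium and 4.19 in fibers, where 6 of them were listed at 0. The 10 fiber markers, such as Bfsp1, summed to 5.22, 1550 and 39400 RPKM in forebrain, epithelium and fibers. Among the 10 epithelial markers, Foxe3 was at 19.4 RPKM in epithelium, 0.433 in fibers and 0 in forebrain, and 6 of the 10 were at least 2-fold lower in fibers than in epithelium. The sum of that list was nonetheless 2240 RPKM in epithelium and 2400 in fibers, against 91.6 in forebrain. Epithelium also held markers of other cells. There all 8 endothelial markers were at 1 RPKM or more (sum 101, against 44.7 in forebrain and 1.78 in fibers) and 5 of 10 retina and pigment markers were (sum 104, against 4.98 and 2.79). The 8 blood markers summed to 5360, 346 and 6.35 RPKM in forebrain, epithelium and fibers, the 8 mesenchyme markers to 90.6, 58.8 and 2.80 (of which Pdgfra gave 52.9 in epithelium, while 6 of the 8 were at least 2-fold lower there than in forebrain), and the 8 myeloid markers to 10.6, 18.6 and 0.996. Their part in the members' values was not tested.

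How much of a fiber gene the epithelium library held can be read from the same values. Epithelium held 0.0819% to 0.951% of the fiber level for the 8 gamma crystallins listed (Crygb lowest, Crygs highest), 0.193% for Bfsp1, 1.51% for Mip, 1.76% for Lim2 and 1.90% for Bfsp2. Over all 16 crystallins the share ran from 0.0819% to 26.5%, and the median over the 10 fiber markers was 1.64%. For Tdrd7 it held 1.91% and for Nhs 18.9% of the fiber level. The Tdrd7 share lay above those of Bfsp1 and the gamma crystallins and beside those of Bfsp2, Lim2 and Mip, and the part of fiber RNA in the epithelium values was not tested. In the other direction, fibers held 0.122% of the epithelium level for Igfbp5, 1.51% for Cdh1, 2.23% for Foxe3 and 4.06% for Pdpn, the lowest 4 of the 10 epithelial markers, and up to 473% for Dkk3. They held 6.09% for Gcnt2 and 34.5% for Agk, above those 4 markers but within the range of the list.

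**Figure D3:**
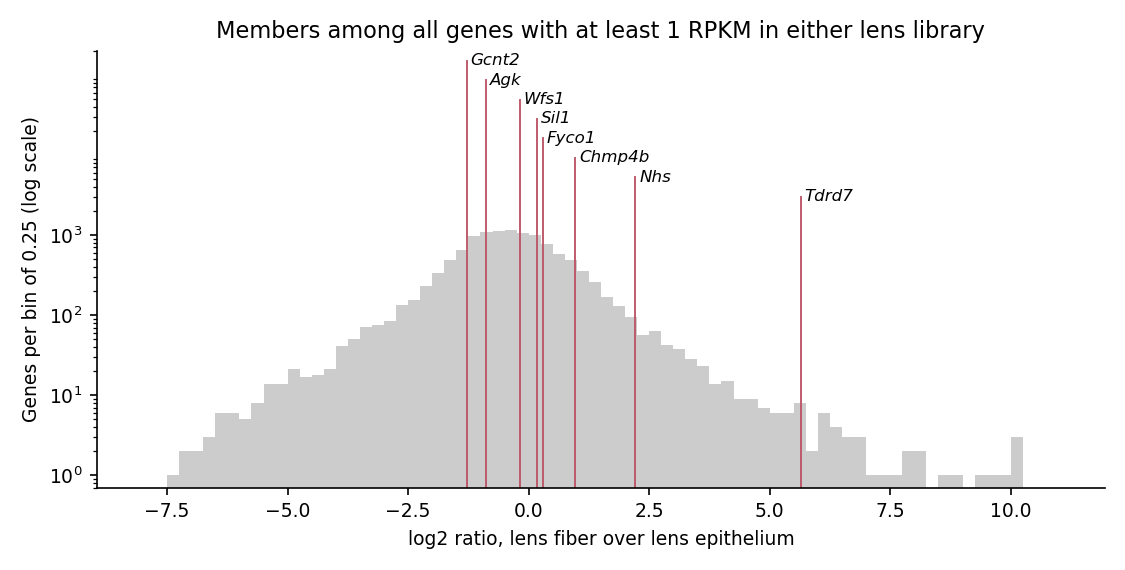
Number of genes (log scale) per bin of 0.25 in the log2 ratio of lens fiber over lens epithelium, over 12090 genes at 1 RPKM or more in either lens library, with red lines for the 8 genes. Tdrd7 at 5.64 lies in the thin right tail and Nhs at 2.21 on the right shoulder, while the other 6 lie between -1.29 and 0.97.

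To place each gene in its pathway, 8 lists with 186 genes in all were compared between the lens libraries, counting genes at 1 RPKM or more in either. The median of the chaperone list stayed between -1.19 and -0.53 and that of the glycan list between -1.61 and -1.03 under every scaling, and that of the ESCRT list between -0.65 and -0.02. The medians of the other 5 lists were on both sides of 0, all being below it with the same sum without crystallins. At the 2-fold threshold 11.4% of all genes were higher and 28.3% lower in fibers, and each list's counts stand beside those shares. RNA granule and Tudor domain genes were divided. Of 21 such genes, 5 were higher and 3 lower in fibers at the 2-fold threshold, with a median log2 ratio of -0.05. Among the higher ones were Rbm24, an RNA-binding protein needed for lens development (1.54 RPKM in forebrain, 25.3 in epithelium, 126.7 in fibers, ratio 2.28), and Tdrkh, a Tudor domain protein of the piRNA pathway (1.60 and 9.83 RPKM in epithelium and fibers, 2.06). Pabpc1 was at 24.3 and 66.0 RPKM (1.41), and Celf1, a regulator of splicing and mRNA decay, at 55.4 and 127.6 (1.19). The stress granule protein gene Tia1 was lower in fibers, at 27.4 and 5.68 RPKM (-2.09). So were Dcp2 (9.01 and 2.82, -1.39) and Tial1 (9.59 and 4.22, -1.02). Tudor genes differed among themselves. Tdrd9 (0.387, 0.272 and 1.90 RPKM in forebrain, epithelium and fibers) and Tdrd12 (0.0716, 0.120 and 1.04), named after their values were seen, were also highest in fibers, at low levels. Tdrd3 was at 20.8, 21.2 and 20.4 RPKM in the 3 libraries, and Tdrd1 and Tdrd5 were under 0.05 RPKM in every library. Stau1, the gene of a double-stranded RNA-binding protein of transport granules, was at 6.56, 5.48 and 3.12 RPKM. The ratio of Tdrd7 to Stau1 within a library, which no scaling of whole libraries can change, was 0.380 in forebrain, 3.92 in epithelium and 359 in fibers. The ratio of Tdrd7 to Tdrd3 was 0.120, 1.01 and 54.9.

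Nhs likewise differed from its relatives. The paralog Nhsl1 was at 2.37, 7.41 and 7.54 RPKM in forebrain, epithelium and fibers, with a fiber over epithelium ratio of 0.02, and Nhsl2 was at 0.521, 0.626 and 0.171 RPKM. The level of Nhs relative to Nhsl1 was 0.705 in forebrain, 0.751 in epithelium and 3.90 in fibers. Among 18 genes of the WAVE and Arp2/3 actin machinery and of tight junctions, 3 were higher and 3 lower in fibers at that threshold, with a median of 0. The highest was Tjp1, encoding the junction scaffold ZO-1 (15.9 and 92.1 RPKM, 2.46), and the lowest was Ocln, encoding the tight junction protein occludin (4.77 RPKM in epithelium and listed at 0 in fibers). Arpc5, an Arp2/3 subunit, was lower (37.2 and 13.3 RPKM, -1.42). The remaining higher genes were Abi2 (18.4 and 48.6 RPKM, 1.36) and Rac1 (22.8 and 55.6, 1.25), and the remaining lower one was Wasl (5.17 and 1.97, -1.05). The WAVE genes Wasf1, Wasf2 and Wasf3 had ratios of -0.12, -0.03 and 0.80, and Abi1 had -0.44.

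Of 25 ESCRT genes, 3 were higher and 1 (Vps37b) lower in fibers at the 2-fold threshold, with a median of -0.22. Chmp2a, another ESCRT-III subunit, had the highest level and ratio (70.2 RPKM in epithelium and 225.1 in fibers, 1.67). Next came Vps28 of ESCRT-I (31.0 and 79.9, 1.34) and Hgs of ESCRT-0 (6.12 and 16.9, 1.33). Vps4b, one of the genes of the ATPase that takes ESCRT-III apart, was at 13.7 and 7.07 RPKM (-0.87) and Vps4a at 12.04 and 13.6 (0.16). Pdcd6ip, encoding the ESCRT adaptor ALIX, was at 4.47 and 3.59 (-0.25). The paralog Chmp4c stayed under 1 RPKM in all 3 libraries (0.106, 0.956 and 0.285). Chmp4b relative to Vps4b was 2.65 in forebrain, 3.18 in epithelium and 12.3 in fibers. The choice of Vps4b bears on this, since its fiber over epithelium ratio was -0.87 and that of Vps4a 0.16. Chmp4b relative to Vps4a was not computed.

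The autophagosome and lysosome list around Fyco1 had 6 of 24 genes higher in fibers at the 2-fold threshold and 0 lower, with a median of 0.24. With the same sum without crystallins 5 were higher and 4 lower, with a median of -0.21. Gabarapl1, a relative of LC3 that coats autophagosomes, was at 28.7 RPKM in epithelium and 238.3 in fibers (3.01). Atg9a, the membrane scramblase of autophagosome formation, was at 5.38 and 26.4 (2.10), and Wipi1, a phosphoinositide effector, at 8.82 and 30.8 (1.69). The direct partners of Fyco1 had ratios near 0, with Rab7 at 12.3 and 14.7 RPKM (0.23), Map1lc3b at 20.1 and 21.6 (0.10), Map1lc3a at 16.2 and 12.7 (-0.33) and the kinesin gene Kif5b at 34.4 and 32.4 (-0.08). Fyco1 relative to Rab7 was 0.106 in forebrain, 0.321 in epithelium and 0.348 in fibers.

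Sil1, close between the lens libraries, was set beside chaperone genes of the endoplasmic reticulum. Of 22 such genes 10 were lower in fibers at the 2-fold threshold and 0 higher, with a median of -0.73. Over all genes, 28.3% were lower and 11.4% higher. Centred on the median gene, 8 of the 22 were lower and 2 higher, where 21.6% of all genes were lower. With the same sum without crystallins, 16 were lower, where 41.8% of all genes were. Hspa5, whose product BiP is the chaperone that Sil1 acts on, was at 144.5 RPKM in forebrain, 184 in epithelium and 70.1 in fibers (-1.38). Its other exchange factor gene Hyou1 was at 16.7, 28.04 and 10.6 (-1.33). Sdf2l1 had the lowest ratio (9.28 and 1.09 RPKM in epithelium and fibers, -2.30), followed by the protein disulfide isomerase genes P4hb (169.3 and 55.6, -1.59) and Pdia3 (56.1 and 18.8, -1.53). On the other side of 0, under 2-fold but above the ratio of Sil1, were Pdia6 (149.0 and 270.8, 0.86), Dnajb11 (40.9 and 74.6, 0.85) and Sec61a1 (58.9 and 73.8, 0.32). With Sil1 at 18.7 and 21.4 RPKM, the level of Sil1 relative to Hspa5 was 0.0328 in forebrain, 0.102 in epithelium and 0.305 in fibers.

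Of 20 genes of the endoplasmic reticulum stress response and calcium handling, listed with Wfs1, 3 were higher and 5 lower in fibers at the 2-fold threshold, with a median of 0.02. Cisd2, the other gene mutated in Wolfram syndrome, was at 10.3, 14.4 and 4.29 RPKM (fiber over epithelium -1.55), so Wfs1 relative to Cisd2 was 0.0994, 0.226 and 0.638. Itpr3, a calcium release channel, was at 3.82 and 0.247 RPKM in epithelium and fibers (-1.95), and Edem1, which acts in disposal of misfolded glycoproteins, at 4.09 and 0.480 (-1.78). Herpud1, induced by stress of this organelle, was at 11.1, 22.1 and 65.0 RPKM in forebrain, epithelium and fibers (fiber over forebrain 2.45). Ppp1r15a, a phosphatase subunit induced by stress, was at 2.13, 11.3 and 15.6 RPKM (epithelium over forebrain 1.97). The stress sensor gene Atf6 was at 4.41 and 5.42 RPKM in epithelium and fibers (0.25).

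Agk and Gcnt2 were set beside mitochondrial and glycan genes. Of 22 genes of mitochondrial import and lipid synthesis, 2 were at least 2-fold higher in fibers, the phosphatidate phosphatase gene Lpin1 (1.27 and 13.7 RPKM, 2.70) and the ceramide kinase gene Cerk (5.57 and 41.5, 2.69). The cardiolipin remodelling gene Taz was the 1 that was at least 2-fold lower (21.2 and 9.75, -1.05), and the median was 0.07. Timm22, the pore of the complex that holds Agk, was at 10.9, 10.3 and 14.3 RPKM, and Agk relative to it was 0.264 in forebrain, 0.230 in epithelium and 0.0567 in fibers. Slc25a4, an ADP/ATP carrier imported by TIM22, was at 254.6, 339.3 and 637.0 RPKM (fiber over epithelium 0.91). Other carrier genes of the list had ratios below 0. Slc25a5, also an ADP/ATP carrier, was at 272.6, 165.2 and 108.3 RPKM (-0.61), and the phosphate carrier Slc25a3 at 64.1, 80.0 and 46.2 (-0.78).

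Of 13 genes of poly-N-acetyllactosamine chains measured, 8 were lower in fibers than in epithelium at the 2-fold threshold and 2 higher, with a median of -1.23, beside -1.29 for Gcnt2. The chain-extending enzyme gene B3gnt2 was at 1.62 RPKM in forebrain, 4.21 in epithelium and 0.0290 in fibers (fiber over epithelium -2.34). The sialyltransferase gene St3gal6 was at 3.74 and 0.0730 RPKM in epithelium and fibers (-2.14) and the galactosyltransferase gene B4galt4 at 8.51 and 1.24 (-2.09). St6gal1 was at 8.004 and 2.25 RPKM in forebrain and epithelium and listed at 0 in fibers. The 2 higher genes, named after their values were seen, were B3gnt5 (22.9 and 65.0, 1.46), which starts lactosylceramide chains, and Lgals3 (2.73 and 9.18, 1.45), a lectin that binds them. The other Gcnt genes were low in all 3 libraries, with Gcnt1 at 0.410, 0.454 and 0.0334 RPKM, Gcnt4 under 0.15 and Gcnt3 listed at 0. Gcnt7 was at 0.611, 1.14 and 0.528 RPKM, below Gcnt2 in forebrain and epithelium and above it in fibers.

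**Figure D4:**
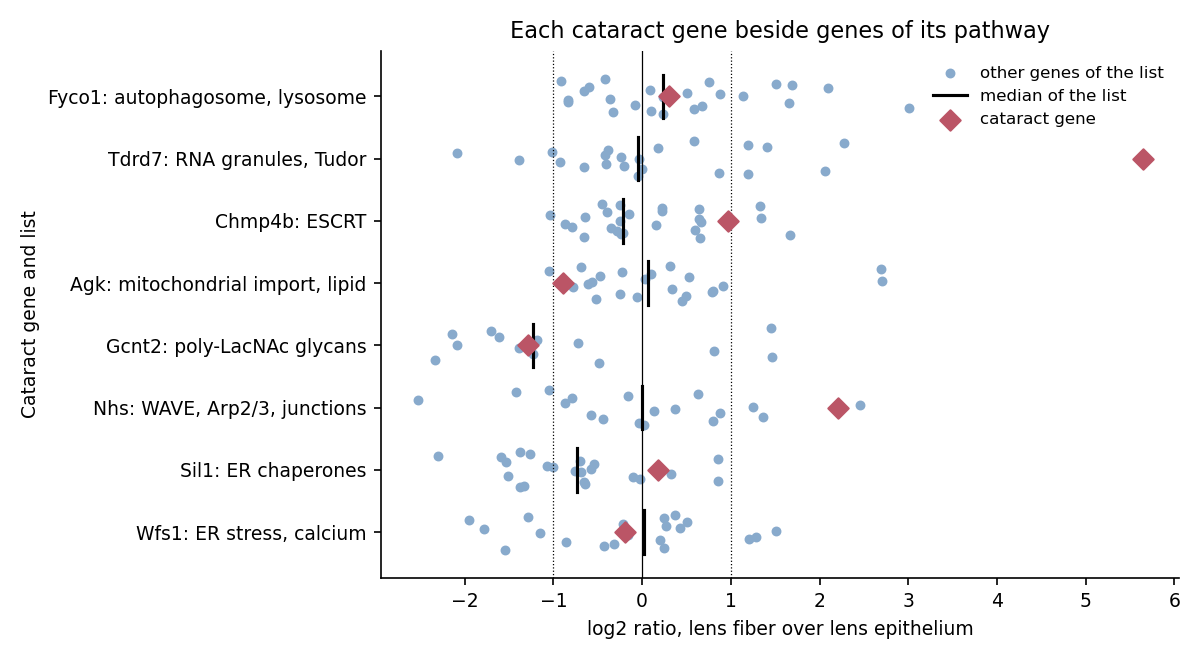
Log2 ratio of lens fiber over lens epithelium for genes of 8 lists (blue points, genes at 1 RPKM or more in either), with a black bar at the list's median and a red diamond at the cataract gene. Tdrd7 and Nhs lie to the right of their medians, Agk to the left of its median, and Gcnt2 at -1.29 beside its median of -1.23.

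The same lists were counted against forebrain. Of all genes, 13.7% were at least 2-fold higher and 11.9% lower in epithelium than in forebrain. The number of genes past 2-fold, higher and then lower in epithelium, was 3 and 0 of 24 for the autophagosome list, 1 and 1 of 19 for RNA granules, 1 and 0 of 25 for ESCRT and 1 and 1 of 22 for the mitochondrial list. It was 3 and 2 of 14 for glycans, 2 and 0 of 19 for actin regulators, 0 and 0 of 22 for chaperones and 2 and 0 of 20 for the stress list. List medians lay between -0.29 (RNA granules) and 0.45 (chaperones), beside -0.03 over all genes. Wipi1 (2.54) and Rbm24 (3.37) had the highest epithelium over forebrain ratios of their lists, and Fut9, a fucosyltransferase gene at 5.73 RPKM in forebrain and 0.0634 in epithelium, had the lowest of the glycan list (-2.66). Between fiber and forebrain, 15.9% of all genes were at least 2-fold higher and 31.6% lower in fibers. The list counts were 8 and 1 of 23 (autophagosome), 5 and 5 of 21 (RNA granules), 2 and 3 of 25 (ESCRT) and 5 and 2 of 21 (mitochondrial). They were 2 and 7 of 12 for glycans, 4 and 3 of 18 for actin regulators, 2 and 6 of 22 for chaperones and 4 and 3 of 19 for the stress list.

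The genes whose 3 levels were most like those of a member were found by Euclidean distance over the log2 levels, among 12943 genes with at least 1 RPKM in any library. A distance over only 3 libraries is a description, and nothing on function follows from it. Tdrd7 had no gene within a distance of 0.5. Its nearest were S100a4, a calcium-binding protein gene (3.13, 12.8 and 609.1 RPKM in forebrain, epithelium and fibers, distance 1.15), the glutathione synthetase gene Gss (6.28, 41.0 and 697.7, 1.55) and Tmem40 (0.221, 38.4 and 990.0, 1.73). Nhs had 3 genes within 0.5 by the unrounded distance, Entpd1 (0.41), Efcab1 (0.49) and Rasl11b (0.50). Sil1 had 17, led by the lysosomal galactosidase gene Glb1 (0.24), the integrin gene Itgav (0.26) and Qsox1 (0.30). Chmp4b had 37, led by Ssu72 (0.09), Maea (0.10) and Tcf20 (0.14), Fyco1 43, led by E530011L22Rik (0.08), Cul9 (0.14) and 6330419J24Rik (0.21), and Wfs1 55, led by Ino80dos (0.12), P2ry14 (0.17) and Gpr171 (0.18). At the low levels of Agk and Gcnt2 such patterns were common, with 283 and 286 genes within 0.5. Nearest were Sirt4 (0.06), Ralgapa2 (0.10) and Csnk2a2 (0.11) for Agk and Osbpl7 (0.08), Dach2 (0.09) and Stard13 (0.10) for Gcnt2.

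By the order of protein-coding genes on GRCm38.p6 in RefSeq, the members have 16 neighbours, and 15 had values. Of the 7 that reached 1 RPKM in a lens library, 2 were higher and 2 lower in fibers at the 2-fold threshold. Over all genes, 11.4% were higher and 28.3% lower, and so few neighbours cannot be told apart from these shares. The highest ratio was that of Tmod1, which follows Tdrd7 and encodes tropomodulin 1, a cap of actin filaments in the membrane skeleton. Tmod1 was listed at 0.248 RPKM in forebrain, 0.575 in epithelium and 24.4 in fibers, 42.5 times epithelium (log2 ratio 4.01, 92nd from the top of 12090 genes). The gene on the other side, Ccdc180, was under 1 RPKM in all 3 libraries (0.0689, 0.0280 and 0.5). Lrrtm2, beside Sil1, was the other neighbour with a higher value in fibers (1.65 and 4.49 RPKM in epithelium and fibers, 1.05). The lower ones were Tfap2a beside Gcnt2 (3.19 and 0.319 RPKM, -1.67) and Dennd11 beside Agk (8.47 and 0.904, -2.31). Only the span of Fyco1 overlapped that of a neighbour, Cxcr6, which was at 0.390 RPKM or less in all 3 libraries.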

How the data were processed

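RNA was measured in 3 libraries made from total RNA by a strand-specific dUTP method, per the labels' protocols. The authors deposited RPKM values per gene. The tools were Cufflinks 2, Cuffdiff and TopHat2 2 and the build mm9, per the submitters' processing notes, with no role stated. For annotation, filters, use of strand, scaling and depth, nothing is stated (not given in the sources used here). Among 266 genes under 0.05 RPKM in forebrain and epithelium, log2 ratios piled up at -0.60 and 0.41 (62 and 37 genes within 0.05). No read counts were recovered from them.

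Ratios were log2 of (RPKM + 1) over (RPKM + 1) for genes at 1 RPKM or more in either library, counted at 2-fold, with Python 3.11.15 and pandas 2.3.3. The calling step was run on a copy of the epithelium library with known fold changes planted in well expressed genes. These had to be recovered by construction, so the run shows only that the step works as written. It says nothing on calls at low levels. The labels gave the groups. ChIP and FAIRE intervals are on mm9 and were not used here, since no annotation of that build was at hand. Of the symbols, 23812 matched RefSeq, and 7 of the 8 members had promoter windows (12 in all).

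Members and lists were chosen with earlier results of these data known. Named genes were the members, fixed partners, the 3 largest ratios past 2-fold of each list (fiber over epithelium), the largest of each other comparison, the 3 nearest genes and the 5 largest ratios among other cataract genes. Timm29 was matched by an older symbol, and a gene of the other cataract list by the synonym Cldn26, listed at 0 in all 3 libraries. The pairs of genes set in ratio, Celf1, Vps37b, Tmod1 and the other neighbours, the markers set beside members, the lists under scalings and the rescaling without Gapdh and Ppia were chosen after values were seen. So were Abi2, Rac1, Wasl, Slc25a3, Slc25a5, Pdia6, Dnajb11, Sec61a1, Gcnt7, Pabpc1, Dcp2 and Tial1.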

Additional observations from a re-analysis of the deposited data

Results flagged for a closer look

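Gcnt2 was the 1 member whose lens libraries lay on opposite sides of forebrain. Its log2 ratio was 0.44 for lens epithelium over forebrain and -0.85 for lens fiber over forebrain, from 0.988, 1.69 and 0.103 RPKM in forebrain, epithelium and fibers. The difference was not tested, since each group held 1 library and both ratios share the forebrain library. The same held for 3955 of 12943 genes (30.6%) with at least 1 RPKM in any library.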

How the results depend on the processing

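No called member ratio changed sign under the alternatives, but these shift ratios by less than 2-fold or keep the sign, so that outcome was fixed in advance. Of 120 member ratios, 104 kept their sign and side of 2-fold, and 36 of 48 member counts stayed within 1.5 times. Tdrd7 and Nhs were past 2-fold in all 3 comparisons under each added value and scaling. Members at least 2-fold lower, fiber over epithelium (1 as reported), were 2 with 0.1 RPKM added, 2 with the same sum without crystallins, 0 at 4-fold and 0 among genes with at least 5 RPKM. The share of all genes moved as well, from 28.3% as reported to 36.4%, 41.8% and 25.8% with 0.1 RPKM, the same sum and at least 5 RPKM. Members at least 2-fold lower, fiber over forebrain (1), were 0 when centred on the median, at 4-fold and with at least 5 RPKM. Of all genes, 31.6% were lower as reported, 25.6% when centred and 30.4% with at least 5 RPKM. Members at least 2-fold higher, epithelium over forebrain (5), were 3 when scaled by 16 housekeeping genes, 3 without Gapdh and Ppia, 3 with at least 5 RPKM and 1 at 4-fold. There 13.7% of all genes were higher as reported, 11.2% under both housekeeping scalings and 14.3% with at least 5 RPKM. Members at least 2-fold higher, fiber over forebrain (5), were 2 at 4-fold. The share of all genes past 4-fold was not counted. The 5 RPKM minimum for members and the scaling without Gapdh and Ppia were chosen after seeing the data. That minimum took Agk and Gcnt2, at most 2.87 and 1.69 RPKM, out of every comparison. It also took Fyco1 and Wfs1, at most 3.95 and 3.26 RPKM there, out of epithelium over forebrain. The smaller member counts under it were thus fixed in advance by these levels, and no ratio changed. With the same sum without crystallins, 6.82% of all genes were at least 2-fold higher in fibers than in epithelium. Without a filter on low values, the share of all genes at least 2-fold higher and lower was 5.74% and 14.3% for fiber over epithelium, 7.23% and 6.28% for epithelium over forebrain and 8.11% and 16.1% for fiber over forebrain. The depth is unknown, so the counting error of low values such as those of Gcnt2 and Agk cannot be given. No paired analysis was possible because each RNA group held 1 library.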

Other observations

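A list of 40 further genes tied to inherited or syndromic cataract outside the structural proteins was read in the same way. Of 37 with at least 1 RPKM in either lens library, 8 were higher and 10 lower in fibers than in epithelium at the 2-fold threshold, with a median log2 ratio of 0.01 (-0.48 to 0.22 over the scalings). Over all genes, 11.4% were higher and 28.3% lower. The highest was Dnmbp, a guanine nucleotide exchange factor at cell junctions, at 2.49 RPKM in forebrain, 5.24 in epithelium and 72.4 in fibers (3.56). The receptor tyrosine kinase gene Epha2 was at 0.744, 6.84 and 42.5 RPKM (2.47), the same order of libraries as Tdrd7 and Nhs. Lss, encoding lanosterol synthase, was at 11.9, 5.12 and 30.1 RPKM (2.34), lowest in epithelium. The collagen prolyl hydroxylase gene Leprel1 was highest in epithelium (0.768, 18.0 and 1.55 RPKM, -2.90), as was Adamtsl4, a gene of the zonule that holds the lens (0.563, 7.83 and 0.822, -2.28). Between epithelium and forebrain, 11 of 37 were at least 2-fold higher and 4 lower in epithelium, where 13.7% and 11.9% of all genes were, led by the homeobox gene Hmx1 (0.110 RPKM in forebrain, 74.8 in epithelium and 97.9 in fibers, 6.09).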
